A study of Mus musculus with 12 samples.

Results

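Fatty acid and triglyceride synthesis in the liver was followed through 10 genes: Srebf1, Acly, Acaca, Acacb, Fasn, Elovl6, Scd1, Me1, Thrsp and Gpam. They were taken by symbol from the 25676 genes of a liver expression table, and all 10 were found and passed the filter on low values. The table covers bulk RNA-seq of whole liver from 12 C57BL/6 mice at 3 to 4 months of age. The wild-type (WT) groups held 3 males and 3 females, and the knockout (KO) groups held 3 males and 3 females in which Yap1, a transcriptional coactivator of the Hippo pathway, was deleted with Foxa3-Cre. The Foxa3 promoter drives Cre in foregut endoderm, the source of both hepatocytes and bile duct cells, so that the deletion is not specific to either, while blood, endothelial and mesenchymal cells keep the gene. The labels give no Cre or floxed allele for the WT mice, and each library carries its own animal number. The design asks which transcripts differ without Yap1, and whether males and females respond alike.

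New fatty acids are made in the cytosol from citrate: ATP citrate lyase releases acetyl-CoA, acetyl-CoA carboxylase turns it into malonyl-CoA, and fatty acid synthase builds palmitate with NADPH. Elongation, desaturation and esterification to glycerol then give the triglyceride that the liver stores or exports in lipoproteins. In hepatocytes insulin acts on this pathway mainly through SREBP1c and glucose through ChREBP, and both factors raise most of the enzymes together.

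Levels are in TPM, transcripts per 1000000, which are scaled for transcript length and sum to the same total in each library. Yap1 was at 23.0 to 34.9 TPM in the 6 WT libraries and at 0.99 to 3.11 TPM in the 6 KO libraries, a log2 difference of -3.36 (two-sided exact permutation within sex, p = 0.005, the smallest this design allows). Between 14321 and 15482 genes were above 0 in a library. Where a typical gene lies depends on the scale. Over the 12278 genes tested, the median log2 difference KO over WT was 0.35 in the deposited TPM and -0.04 after each library was divided by a median-of-ratios size factor. These factors ran from 0.72 to 0.95 in WT and from 1.09 to 1.34 in KO, so every deposited KO value is set higher against WT than the same value after rescaling. Both scales are therefore given, the deposited one first. KO male 3 and WT female 2 stood apart from the libraries of their genotype for these genes: KO male 3 was the highest of the 6 KO libraries for 9 of the 10 genes, and WT female 2 was the highest of the 6 WT libraries for 8 of them. At the other end, WT male 2 was the lowest of the 6 WT libraries for 6 of the 10 genes. That library also had the smallest size factor (0.72) and the fewest genes above 0 (14321). In bulk tissue, fewer cells of a type and less RNA per cell cannot be told apart.

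The 10 genes did not move together. Thrsp fell in the KO on both scales, with every KO library below every WT library. In the genotype fits of all 12 libraries, Scd1 and Acaca were called higher on the deposited scale alone. In the same fits Srebf1, Acacb, Me1 and Gpam were called lower on the rescaled values alone, and Fasn, Acly and Elovl6 on neither scale. Without KO male 3, Acacb (-0.59, adjusted p = 0.0156, limma) and Gpam (-0.36, adjusted p = 0.0453, limma) were also called lower on the deposited scale. With limma on log2(TPM + 1) and Benjamini-Hochberg adjustment over all genes tested, 2 members were called higher and 1 lower on the deposited scale, where 50.1% of all tested genes were called higher and 4.82% lower. After rescaling no member was called higher and 5 were called lower, against 20.9% and 18.7% of all tested genes; 6 members had an unadjusted p under 0.05. The median log2 difference of the 10 genes was 0.12 as deposited, beside 0.35 over all genes, and -0.34 after rescaling, beside -0.04.

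**Figure D1:**
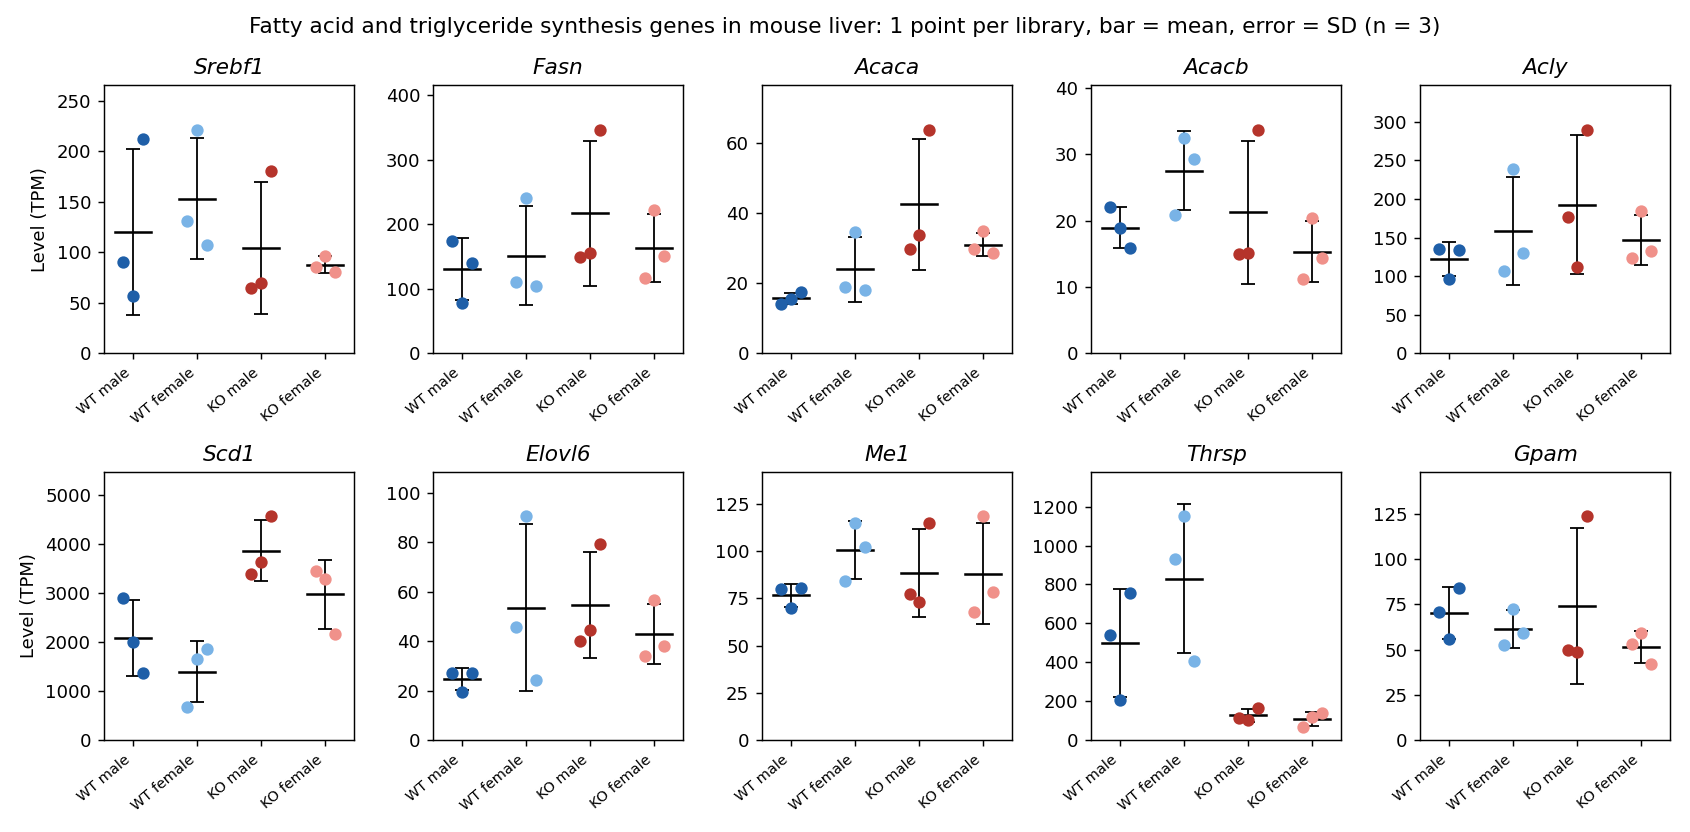
TPM of each of the 10 genes (vertical axes, linear from 0) in the 4 groups (horizontal axes), with 1 point per library, a bar at the mean of 3 libraries and error bars of 1 SD. Thrsp lies between 204 and 1150 TPM in the WT libraries and between 68.6 and 164 TPM in the KO libraries, and KO male 3 is the highest KO point for every gene but Me1.

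Levels differed widely between the genes. In WT liver Scd1 was the most abundant at 1737 ± 730.1 TPM (SD, n = 6), followed by Thrsp at 665 ± 349 TPM. Fasn at 141 ± 58.7 TPM, Acly at 140.3 ± 50.6 TPM and Srebf1 at 137 ± 67.0 TPM came next and did not differ from each other beyond their spread. Me1 (88.6 ± 16.8 TPM) and Gpam (65.7 ± 12.04 TPM) lay below them, then Elovl6 (39.0 ± 26.7 TPM), and the carboxylases Acacb (23.2 ± 6.36 TPM) and Acaca (19.9 ± 7.53 TPM) were lowest and overlapped. In the KO, Scd1 stayed first at 3410 ± 767 TPM, but Thrsp at 118 ± 32.6 TPM fell behind Fasn at 190.2 ± 83.8 TPM and Acly at 169.7 ± 65.5 TPM. The carboxylases changed places, with Acaca at 36.8 ± 13.5 TPM and Acacb at 18.3 ± 8.10 TPM.

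Thrsp encodes Spot 14, a small protein induced by thyroid hormone and carbohydrate that is linked to lipogenesis in liver, fat and mammary gland. It lies at chr7:97412938-97417730 on the minus strand (GRCm38; GENCODE). Its level was 539.8, 204 and 757 TPM in the WT males, 933, 1150 and 407 TPM in the WT females, 111, 104 and 164 TPM in the KO males and 68.6, 121 and 139 TPM in the KO females. No KO library reached the lowest WT library, WT male 2, and the groups did not overlap. The log2 difference was -2.33 (SE 0.353, adjusted p = 0.00011, limma), 5.02-fold lower on the log2(TPM + 1) scale, and -2.68 relative to the median of all genes. After rescaling it was -2.79 (SE 0.330, adjusted p = 2.44e-05). Complete separation with KO lower was seen in 1.88% of all tested genes as deposited and in 8.19% after rescaling. Thrsp was called in each of the 12 fits that left out 1 library, with log2 differences from -2.63 to -2.14.

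Scd1, the delta-9 desaturase that makes oleate and palmitoleate, lies at chr19:44394455-44407879 on the minus strand. Its level was 2888, 1988 and 1364 TPM in the WT males, 679.6, 1651 and 1849 TPM in the WT females, 3386, 3626 and 4555 TPM in the KO males and 3450, 3285 and 2160 TPM in the KO females. WT male 1 lay above KO female 3, and all other KO libraries were above all WT libraries. The log2 difference was 1.07 (SE 0.252, adjusted p = 0.00298, limma), which is 2.09-fold and 0.71 above the median of all genes. After rescaling it was 0.60 and missed the threshold (SE 0.262, adjusted p = 0.0868). Scd1 was called in all 12 fits on the deposited scale that left out 1 library.

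The 2 acetyl-CoA carboxylases differ in their place in the cell. Acaca encodes the cytosolic enzyme whose malonyl-CoA feeds fatty acid synthesis, and Acacb the enzyme at the outer mitochondrial membrane whose malonyl-CoA restrains Cpt1a and so fatty acid oxidation. Acaca (chr11:84129672-84401651, plus strand) was at 14.2, 15.5 and 17.5 TPM in the WT males, 18.9, 34.8 and 18.2 TPM in the WT females, 29.8, 33.9 and 63.9 TPM in the KO males and 29.7, 34.9 and 28.7 TPM in the KO females. The 6 KO libraries lay above 5 of the WT libraries, and WT female 2 lay among them. This gave a log2 difference of 0.86 (SE 0.227, adjusted p = 0.00595, limma), 0.51 above the median of all genes. It was 0.41 after rescaling (adjusted p = 0.111), and without KO male 3 it was 0.67 on the deposited scale (adjusted p = 0.00797) and 0.27 after rescaling (adjusted p = 0.231).

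Acacb (chr5:114146535-114250761, plus strand) was at 22.04, 18.8 and 15.9 TPM in the WT males, 20.8, 32.4 and 29.3 TPM in the WT females, 15.03, 15.1 and 33.7 TPM in the KO males and 11.2, 20.4 and 14.4 TPM in the KO females. KO male 3 was the highest of all 12 libraries, whereas 4 of the other KO libraries lay below every WT library. As a log2 difference this was -0.37 as deposited (SE 0.239, adjusted p = 0.20, limma) and -0.81 after rescaling (SE 0.217, adjusted p = 0.00949). Without KO male 3 it was -0.59 as deposited (adjusted p = 0.0156) and -0.98 after rescaling.

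A ratio between 2 genes of the same library does not depend on the scale. The TPM ratio of Acaca to Acacb was 0.862 ± 0.205 in WT (SD, n = 6, range 0.622 to 1.10) and 2.08 ± 0.327 in KO (n = 6, range 1.71 to 2.64). Every KO library was above every WT library, KO male 3 at 1.90 and WT female 2 at 1.07 included. The log2 difference was 1.29, and 1.32 without KO male 3. The ratio of Thrsp to Fasn was 4.72 ± 2.12 in WT and 0.656 ± 0.161 in KO, again with no overlap (log2 difference -2.77). The ratio of Scd1 to Fasn was 13.8 ± 7.48 in WT and 19.6 ± 6.50 in KO, and the groups overlapped widely (log2 difference 0.63). These 3 pairs were chosen after the values were seen, from genes whose differences are given above, so the ratios are a description with no test.

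**Figure D2:**
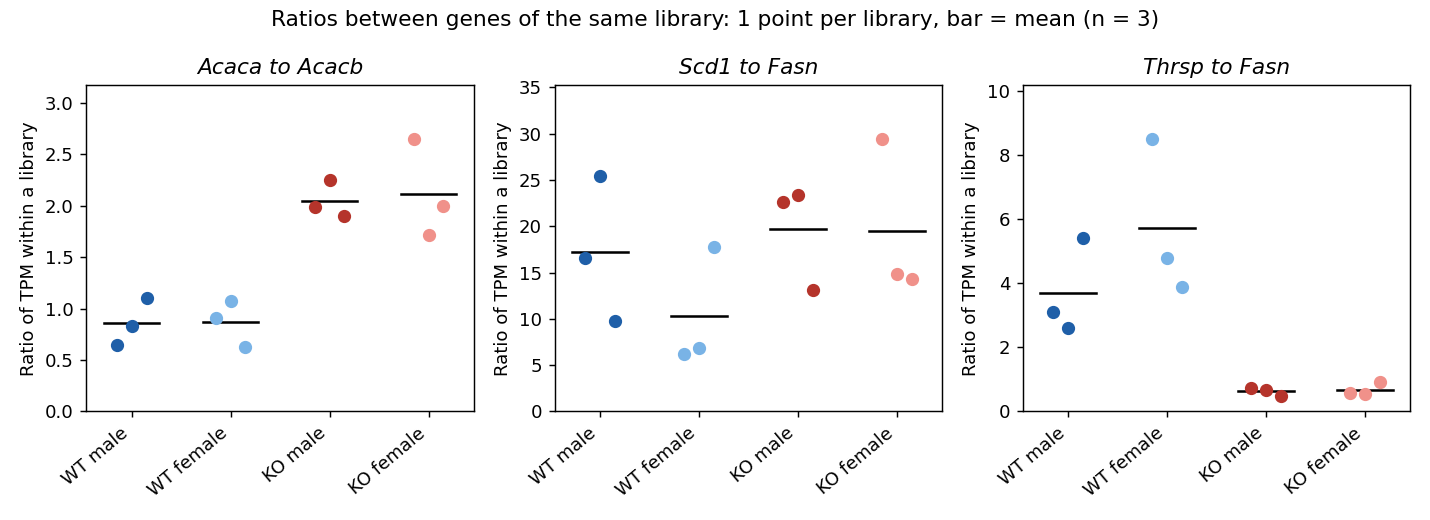
Ratio of the TPM of 2 genes within each library (vertical axes, linear) in the 4 groups (horizontal axes), with 1 point per library and a bar at the mean of 3. The Acaca to Acacb ratio is 0.622 to 1.10 in WT and 1.71 to 2.64 in KO, the Thrsp to Fasn ratio is 2.61 to 8.49 and 0.475 to 0.925, and the Scd1 to Fasn ratios overlap.

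Srebf1, which encodes the SREBP1a and SREBP1c factors, was at 90.1, 56.6 and 213 TPM in the WT males, 131, 222 and 107 TPM in the WT females, 64.2, 69.7 and 180.1 TPM in the KO males and 85.7, 96.8 and 80.2 TPM in the KO females. It lies at chr11:60199089-60222581 on the minus strand. WT male 3 and WT female 2 were far above the other WT libraries, KO male 3 was far above the other 5 KO libraries, and the groups overlapped. The log2 difference was -0.44 as deposited (SE 0.327, adjusted p = 0.27, limma) and -0.90 after rescaling (SE 0.290, adjusted p = 0.0258). Without KO male 3 it was -0.68 as deposited (adjusted p = 0.068) and -1.09 after rescaling. Gene-level TPM do not separate the SREBP1a and SREBP1c transcripts. Srebf1 shares 109 exon bases, 1.93% of its exons, with Rai1 on the other strand, and the use of strand in counting is not given in the sources used here.

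Acly and Fasn varied widely within each genotype. Acly, which supplies acetyl-CoA, was at 96.7 to 238 TPM in WT and at 112 to 289.7 TPM in KO. Its log2 difference was 0.26 as deposited (adjusted p = 0.392, limma) and -0.20 after rescaling (adjusted p = 0.508). Fasn, the multifunctional synthase (chr11:120805846-120824547, minus strand), was at 174, 78.3 and 139.6 TPM in the WT males, 109.8, 240.2 and 104 TPM in the WT females, 149.5, 155 and 346 TPM in the KO males and 117, 222 and 151 TPM in the KO females. WT female 2 and KO male 3 were the extremes of their genotypes, and the groups overlapped. Fasn differed by 0.43 on the log2 scale as deposited (95% interval -0.20 to 1.05, adjusted p = 0.224) and -0.03 after rescaling (-0.61 to 0.54, adjusted p = 0.934).

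Elovl6, which elongates palmitate to stearate, ran from 19.4 to 90.4 TPM in WT and from 34.1 to 79.3 TPM in KO. WT female 2 was the highest of all 12 libraries, and the log2 difference was 0.46 as deposited (95% interval -0.22 to 1.14, adjusted p = 0.235, limma) and 0.01 after rescaling (adjusted p = 0.99). Without WT female 2 it was 0.74 on the deposited scale and was called (adjusted p = 0.0231), and without KO male 3 it was 0.26 (adjusted p = 0.501). Me1, the cytosolic malic enzyme that supplies NADPH, had the same mean in both genotypes as deposited, 88.6 ± 16.8 TPM in WT and 88.3 ± 22.4 TPM in KO (SD, n = 6). Its log2 difference was -0.02 as deposited (adjusted p = 0.921, limma) and -0.48 after rescaling (SE 0.151, adjusted p = 0.0229). Elovl6 and Me1 each share a few exon bases with an antisense gene.

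Gpam encodes the mitochondrial glycerol-3-phosphate acyltransferase, which commits fatty acids to glycerolipid. It was at 70.4, 55.9 and 84.1 TPM in the WT males, 52.3, 72.5 and 59.1 TPM in the WT females, 49.6, 48.4 and 123 TPM in the KO males and 52.9, 59.3 and 42.2 TPM in the KO females. KO male 3 was the highest of all 12 libraries, and the other 5 KO libraries were within or below the WT range. For Gpam the log2 difference was -0.15 as deposited (SE 0.211, adjusted p = 0.565, limma) and -0.61 after rescaling (SE 0.178, adjusted p = 0.0159). Without KO male 3 it was -0.36 as deposited (adjusted p = 0.0453) and -0.76 after rescaling. With that library left out, 5 of the 10 genes were called on the deposited scale, 2 higher (Scd1, Acaca) and 3 lower (Thrsp, Acacb, Gpam), where 47.1% of all tested genes were called higher and 5.02% lower.

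**Figure D3:**
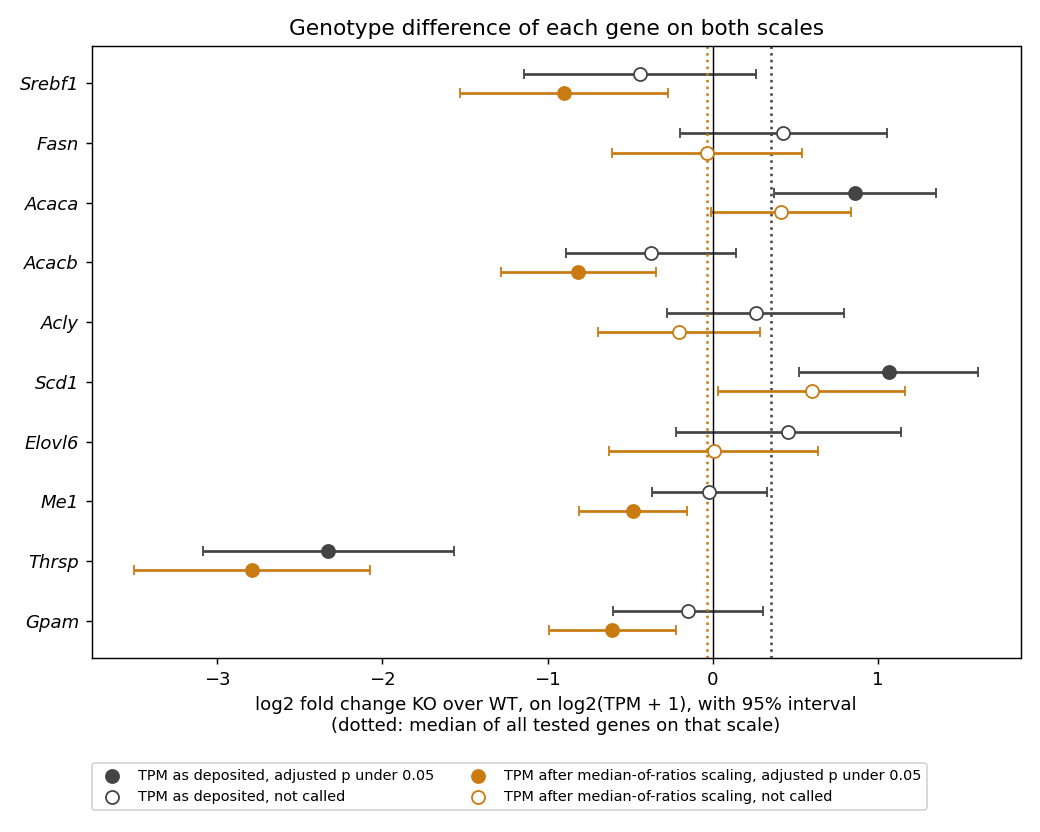
Log2 fold change KO over WT on log2(TPM + 1) (horizontal axis) for each of the 10 genes (vertical axis), with 95% intervals, from TPM as deposited (grey) and after median-of-ratios scaling (orange), filled where the adjusted p is under 0.05. The dotted lines are the medians of all tested genes, 0.35 and -0.04, and Thrsp is filled on both scales at -2.33 and -2.79.

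The authors' deposited table of the KO to WT comparison gives Thrsp a log2 fold change of -2.70 with an FDR printed as 0.00, and Acacb -0.97, also at 0.00. In the authors' deposited table Gpam is at -0.66 (FDR 0.06), Srebf1 at -0.60 (0.15), Me1 at -0.51 (0.11), Acaca at 0.48 (0.19) and Scd1 at 0.26 (0.65). For Fasn, Acly and Elovl6 the authors' deposited table has -0.19 (0.75), -0.24 (0.63) and 0.08 (0.89). Each of these values has the sign of the rescaled TPM difference of its gene.

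Sequence upstream of a RefSeq start was available for 9 of the 10 genes (GRCm38.p6; Scd1 was not matched), and windows of 4 of them (Acly, Fasn, Gpam, Srebf1) sit at the gene start that GENCODE also gives. The Acaca and Acacb windows lie 65766 and 18983 bases inside the gene and end in AG, as a splice acceptor does, so they may not be promoters, and they are counted among the 13 windows below. CCAAT, the core of the NF-Y site and a neighbour of SREBP sites in many lipogenic promoters, was searched on both strands as CCAAT and ATTGG. It was found in 3 of these 4 windows and in 7 of all 13 member windows, that of Acacb included, against 33.8% of all 32851 RefSeq windows of the same length. The sterol regulatory element, in its strict form and with 1 free position, and the E-box CACGTG were in none of the 13, against 0.0731%, 0.192% and 6.02% of all windows. Other forms of the sterol regulatory element were not searched, so these counts do not show that the windows lack SREBP sites. The Sp1 motif GGGCGG was in 1 of the 4 (Acly) and in 5 of the 13, against 32.7%. The TEAD motif GGAATG, bound by the factor family that YAP1 works with, was in none of the 4 and in 2 of the 13 (a second Gpam window and a Me1 window, both inside the gene), against 12.6%. A match is a run of letters, not a shown binding site. Fasn, called on neither scale, and Gpam, which fell on the rescaled values, are shown as the 250 bases before the gene start, 5′ to 3′ on the minus strand at chr11:120824548-120824797 and chr19:55127239-55127488, with CCAAT or ATTGG in capitals (2 overlap in Fasn).
Fasn: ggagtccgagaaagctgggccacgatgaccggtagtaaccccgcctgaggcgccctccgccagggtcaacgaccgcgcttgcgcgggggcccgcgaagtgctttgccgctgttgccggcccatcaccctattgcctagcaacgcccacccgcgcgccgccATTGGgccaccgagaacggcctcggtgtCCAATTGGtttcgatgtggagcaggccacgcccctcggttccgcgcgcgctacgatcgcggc
Gpam: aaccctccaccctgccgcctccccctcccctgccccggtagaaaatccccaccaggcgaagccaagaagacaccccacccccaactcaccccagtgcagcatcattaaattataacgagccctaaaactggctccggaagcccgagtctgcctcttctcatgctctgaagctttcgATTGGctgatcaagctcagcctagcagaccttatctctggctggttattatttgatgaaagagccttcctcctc
Thrsp, the gene with the widest fall, holds the same 5 letters 79 and 52 bases before the RefSeq start, shown with 10 bases on each side (chr7:97417615-97417639 and chr7:97417588-97417612, minus strand). The gene start that GENCODE gives lies 180 bases farther upstream, so both sites are inside the annotated gene, in its exons.
Thrsp, 79 bases: aaacgctgggATTGGctcaaaacag
Thrsp, 52 bases: ctgtgttgctCCAATggttgggctt

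In males, Acaca rose by a log2 difference of 1.30 (SE 0.279, adjusted p = 0.00266, limma), Elovl6 by 1.07 (adjusted p = 0.041) and Scd1 by 0.94 (adjusted p = 0.0478), and Thrsp fell by 1.81 (SE 0.471, adjusted p = 0.00811). That is 3 members higher and 1 lower, where 43.3% of all tested genes were called higher and 2.81% lower. After rescaling 1 member was higher, Acaca at 0.75 (adjusted p = 0.0471), and 1 lower, Thrsp at -2.39, against 13.9% and 10.2% of all genes. The male calls of Scd1 and Elovl6 on the deposited scale held in 4 and 5 of the 12 fits that left out 1 library, those of Acaca and Thrsp in all 12. Without KO male 3, Scd1 was at 0.82 (adjusted p = 0.147) and Elovl6 at 0.77 (adjusted p = 0.171), and the rescaled male call of Acaca was lost (0.51, adjusted p = 0.172). In females, Scd1 rose by 1.19 (SE 0.361, adjusted p = 0.0227) and Thrsp fell by 2.84 (SE 0.471, adjusted p = 0.000579), 1 member higher and 1 lower against 29.1% and 4.68% of all genes. The female call of Scd1 was lost without WT female 1 (0.73), KO female 1 (1.06) or KO female 2 (1.10). Acacb in females was at -0.82 (adjusted p = 0.0507), with the 3 KO females below the 3 WT females, a separation seen in 7.88% of all genes. Thrsp and Srebf1 (-0.74, adjusted p = 0.244, limma) were separated in the same way. Acacb was called in females in 4 of the 12 fits that left out 1 library. After rescaling 2 members were called lower in females, Thrsp at -3.19 and Acacb at -1.15 (adjusted p = 0.0106), and none higher, against 10.9% and 15.2% of all genes.

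The difference between the male and the female effect was tested directly. No member was called (limma, adjusted p from 0.547 to 0.902), where 0.912% of all tested genes were, and 2 had an unadjusted p under 0.05. These were Acaca, at 0.89 (95% interval 0.03 to 1.74), and Elovl6, at 1.22 (0.02 to 2.42), both higher in the male comparison. Without KO male 3 both intervals included 0, with Acaca at 0.56 (-0.16 to 1.27) and Elovl6 at 0.92 (-0.33 to 2.17). For Thrsp the difference was 1.03 with an interval from -0.41 to 2.47, so the data do not show that the sexes respond alike. After rescaling no member was called and none had an unadjusted p under 0.05, with 0.839% of all genes called.

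**Figure D4:**
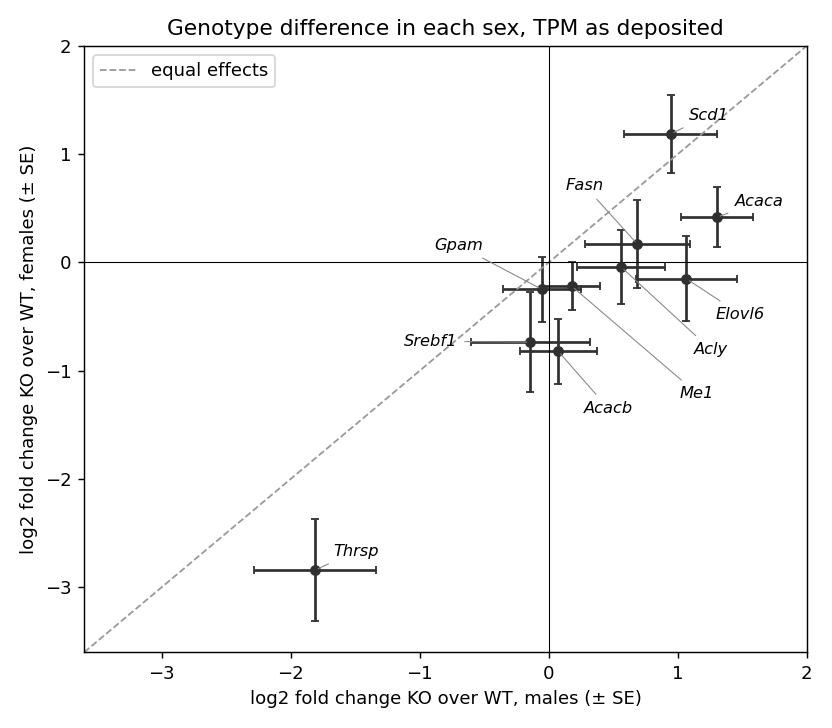
Log2 fold change KO over WT in females (vertical axis) against males (horizontal axis) for the 10 genes, TPM as deposited, with bars of 1 SE and a dashed line where both are equal. Thrsp lies at -1.81 in males and -2.84 in females, and Elovl6, at 1.07 and -0.15, lies farthest from the dashed line.

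No member was called between males and females in WT liver, where 5.74% of all tested genes were, and 1 had an unadjusted p under 0.05 (limma). It was Elovl6, whose log2 difference male over female was -0.91, with WT female 2 at 90.4 TPM. After rescaling no member was called, against 4.38% of all genes, and the 1 with an unadjusted p under 0.05 was Scd1 at 0.87 (limma), while Elovl6 was at -0.69 (unadjusted p = 0.0876). In KO liver no member was called or had an unadjusted p under 0.05, with 0.0814% of all genes called. All 10 KO differences were positive, from 0.02 to 0.40, and the male group there holds KO male 3. Without that library 5 were positive and 5 negative as deposited, among them Srebf1 at -0.38 and Me1 at -0.19, and 8 were positive and 2 negative after rescaling (Srebf1 at -0.29 and Me1 at -0.098).

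Over the 12 libraries the member most like Fasn was Acly, with a Pearson correlation of log2(TPM + 1) of 0.899, the second highest of all tested genes. Elovl6 followed at 0.827, Acaca at 0.761 and Me1 at 0.692, while Thrsp was at -0.01. The non-members most like Fasn were Chd9 (0.914), Hspa9 (0.896), Armc6 (0.877), Ddx31 (0.864) and Hccs (0.851). These are descriptions over libraries that share a scale and the library KO male 3: without it Acly was at 0.828 and Gpam fell from 0.615 to 0.268, and after rescaling Hspa9 was at 0.454.

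The counts of called genes in the lists that follow stand beside 50.1% of all tested genes called higher and 4.82% lower as deposited, and 20.9% and 18.7% after rescaling. The factors that control the pathway were read from a list of 19 genes, of which 7 were called higher and 1 lower as deposited (median log2 difference 0.23) and 2 higher and 8 lower after rescaling (median -0.23). Pparg, a lipogenic nuclear receptor that is low in normal liver, rose on both scales, from 4.57 ± 1.85 to 19.1 ± 3.30 TPM (log2 difference 1.89, adjusted p = 2.19e-06, limma). Insig2, which holds SREBP in the endoplasmic reticulum, was at 1.45 (adjusted p = 0.00544) and 0.99 after rescaling (adjusted p = 0.0710). Mbtps2, a protease that releases SREBP, was at 0.72 and 0.38, called on both. Mlxipl, which encodes ChREBP, is outside the rule that names genes and was chosen after its values were seen. It fell on both scales, from 124 ± 38.2 to 75.9 ± 7.92 TPM (log2 difference -0.63, adjusted p = 0.0267, and -1.09 after rescaling, adjusted p = 0.0008, limma), with overlapping groups.

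Among 16 other genes of synthesis, elongation and desaturation, 5 were higher and 3 lower as deposited (median 0.14), and 3 and 5 after rescaling (median -0.30). Scd2, the desaturase that is the minor form in adult liver, rose from 2.65 ± 0.609 to 60.8 ± 22.6 TPM (log2 difference 4.00, adjusted p = 1.52e-08, limma). Elovl3, an elongase of long saturated and monounsaturated chains, fell from a WT range of 3.14 to 536 TPM to 0.105 to 0.915 TPM in KO (log2 difference -4.58, adjusted p = 0.000604), and its effect differed between the sexes (-7.35 in males, -1.82 in females, adjusted p = 0.00469). Hacd2, a dehydratase of the elongation cycle, rose by 0.87, and by 0.41 after rescaling. Of 12 genes of glycolysis and NADPH supply, 7 were higher and none lower as deposited (median 0.45), and 3 were higher and 4 lower after rescaling (median -0.01), a share of higher genes near that of all genes on both scales. Pgd and G6pdx, the NADPH-producing dehydrogenases of the pentose phosphate pathway, rose on both scales. Pgd went from 31.3 to 41.0 TPM in WT to 111 to 193.5 TPM in KO (log2 difference 2.06) and G6pdx from 2.61 ± 0.769 to 6.85 ± 1.54 TPM (1.13). Pfkl, a glycolytic phosphofructokinase, rose by 1.15.

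Of 18 tested genes of triglyceride synthesis beyond Gpam, 9 were higher and 2 lower as deposited (median 0.35), the share of higher genes over all tested genes being 50.1%, and 2 and 2 after rescaling (median 0.00). Mogat2, a monoacylglycerol acyltransferase best known from the intestine, rose from 0.490 ± 0.164 to 7.24 ± 1.57 TPM (log2 difference 2.45, adjusted p = 2.13e-08, limma). Gpat3, a glycerol-3-phosphate acyltransferase of the endoplasmic reticulum, rose by 1.96, with a difference between the sexes at adjusted p = 0.0481 as deposited and 0.11 after rescaling. Acsl1, the main long-chain acyl-CoA synthetase of liver, fell by 1.26. Of 15 lipid droplet genes, 5 were higher and 2 lower (median 0.04), and 4 and 8 after rescaling (median -0.42); Cidec (1.66), Plin4 (1.43) and Plin3 (1.37), all proteins of the droplet surface, rose on both scales. Of 12 genes of fatty acid uptake and lipoprotein assembly, 4 were higher and 3 lower (median 0.14), and 2 and 4 after rescaling (median -0.28). Lpl, the lipase that frees fatty acids from circulating triglyceride, rose from 7.68 ± 4.53 to 176 ± 53.1 TPM (log2 difference 4.45), and the fatty acid transporter Cd36 rose from 15.5 ± 8.53 to 101 ± 12.7 TPM (2.79). As deposited the effect on Cd36 differed between the sexes, at 3.54 in males and 2.04 in females (adjusted p = 0.0485, limma), and this call was lost after rescaling (adjusted p = 0.187). Fabp1, the liver fatty acid binding protein, fell by 2.21.

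**Figure D5:**
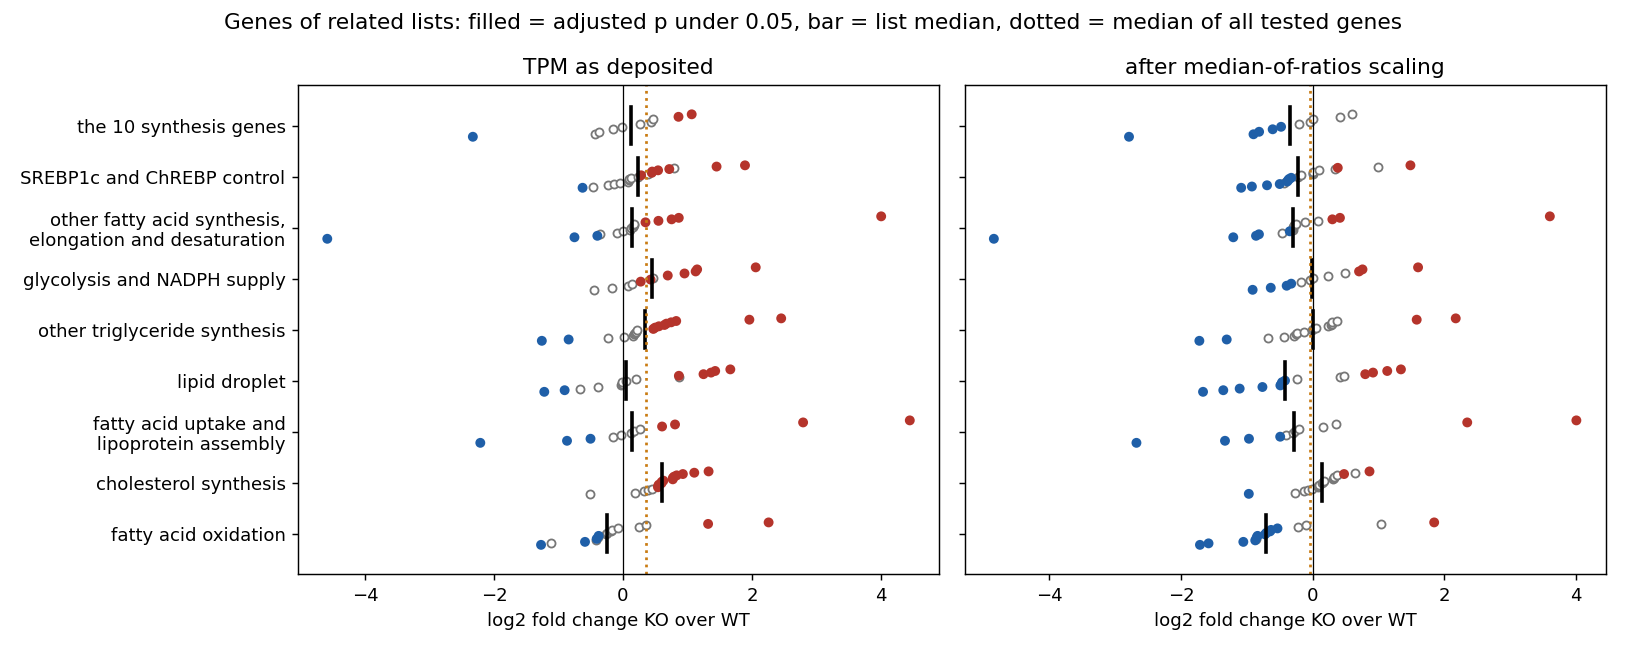
Log2 fold change KO over WT (horizontal axis, log2(TPM + 1)) for the genes of each pathway list (vertical axis), as deposited (left) and after rescaling (right), with 1 point per gene, red or blue where called higher or lower and open where not, a bar at the list's median and a dotted line at the median of all tested genes. The 10 members have a median of 0.12 as deposited, below the 0.60 of cholesterol synthesis and above the -0.25 of fatty acid oxidation.

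In the neighbouring pathways, 13 of 18 cholesterol synthesis genes were higher and none lower as deposited (median 0.60), where 50.1% of all tested genes were higher. After rescaling 2 were higher and 1 lower (median 0.15), against 20.9% and 18.7% of all genes. Srebf2, the main transcription factor of that pathway, rose on both scales (0.93 and 0.48), while Srebf1 was at -0.44 and -0.90. Of 16 fatty acid oxidation genes, 2 were higher and 4 lower as deposited (median -0.25), and 1 was higher and 11 were lower after rescaling (median -0.71). Ppara, the receptor that drives oxidation, fell by 1.27, and Pdk4, which restrains pyruvate oxidation, rose by 2.26.

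Markers of several cell types moved with genotype and are set beside these values. The 5 macrophage markers rose on both scales, with a summed level of 37.3 to 121 TPM in WT and 175 to 333 TPM in KO. The 6 cholangiocyte markers summed to 27.7 to 58.5 TPM in WT and 252 to 713 TPM in KO, nearly all of it Spp1 (21.9 to 52.5 and 232 to 702 TPM), which macrophages and other cells also express. Of the 4 tested, 2 were called higher and 1 lower on both scales. Sox9, a biliary factor, was at 1.22 to 5.89 TPM in WT and 7.0 to 16.2 TPM in KO with no overlap, the biliary keratin Krt19 was at 0.74 to 2.26 TPM in WT and 0.06 to 2.17 TPM in KO, and Epcam was at 0.59 to 1.55 and 0.34 to 0.76 TPM. The 6 markers of stellate cells and fibroblasts summed to 14.6 to 29.1 and 71.5 to 167 TPM, with 4 called higher and none lower as deposited and 3 higher and 1 lower after rescaling. Most of that sum in KO was Col1a1 and Col1a2, while Lrat, which marks quiescent stellate cells, was at 3.20 to 9.25 TPM in WT and 1.64 to 5.79 TPM in KO. Of the 5 hepatocyte markers, 1 was called lower as deposited and 3 after rescaling, with sums of 75351 to 103821 TPM in WT and 57151 to 82807 TPM in KO. Of the 3 neutrophil markers tested, 2 were called higher as deposited and none after rescaling, and the 4 listed summed to 0 to 18.4 TPM in WT and 8.85 to 41.5 TPM in KO. The 4 endothelial markers, with 1 called lower as deposited and 2 after rescaling, summed to 19.2 to 25.3 and 12.1 to 39.2 TPM. Of the 4 lymphocyte markers tested none was called on either scale, and the 5 listed summed to 1.43 to 6.19 and 1.71 to 6.35 TPM. The part of these cell types in the results, above all for Scd2, Lpl, Cd36 and Pparg, which cells other than hepatocytes also express, was not tested. The 7 adipocyte markers summed to 5.16 to 15.6 TPM in WT and 10.8 to 75.3 TPM in KO. Of the 2 tested, 1 was called higher on both scales (Fabp4, at 4.73 to 11.7 and 8.22 to 40.7 TPM), and Cfd was at 0 to 3.16 TPM in WT and 0 to 25.0 TPM in KO. In KO male 3, where 9 of the 10 synthesis genes were highest, the sum was 16.5 TPM. Nearly all of it was Fabp4 at 16.3 TPM, above the highest WT library (11.7 TPM). Cidea was at 0.21 TPM there, and Adipoq, Lep, Plin1, Cfd and Retn were at 0. Lep was at 0 in every KO library. The part of adipocytes in these values was not tested.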

How the data were processed

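RNA of whole liver was sequenced from 12 mice (3 per sex and genotype, groups taken from the labels). The deposited table holds TPM per gene and library, and the build is GRCm38, per the submitters' processing notes, which also name edgeR. Aligner, annotation and read depth are not given in the sources used here. TPM keep no depth, so no counting interval is given, and no count test was run. The authors' deposited comparison holds signed fold changes (a score without values between -1 and 1), log2 fold changes and FDR p-values, used only as quoted.

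Of 25676 genes, 12278 reached a mean TPM of 0.5 and were tested with limma 3.58.1 in R 4.3.3 on log2(TPM + 1) with a trended prior, the genotype effect with sex as a covariate and the effects within a sex from 1 model of the 4 groups. P-values were adjusted by Benjamini-Hochberg over all tested genes, with a threshold of 0.05, and the fit was tested on simulated data. Fold changes on this scale understate those of low genes. Rescaled values are TPM divided by median-of-ratios size factors from 12819 genes. Yap1 was tested by exact permutation of genotype within sex.

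All 10 genes are described. From each other list up to 3 called genes with the largest change are named, with the 5 non-members most correlated with Fasn. A gene that this rule names is not reported here. The 10 genes and the lists were chosen with earlier results of these data known. Other scalings, pseudocounts, filters and subsets of libraries were also run.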

Additional observations from a re-analysis of the deposited data

Results flagged for a closer look

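In 12 of 40 groups of 6 libraries examined (10 genes, 2 genotypes, 2 scales), 1 library lay farther from the rest than Dixon's test allows at its 95% limit. For a single group of independent values chance gives about 1 in 20. The 40 groups reuse the same libraries, several genes vary together and the 2 scales hold the same values. The count of flags therefore cannot be set against that rate. Each flagged library was KO male 3 or WT female 2, and the same 6 pairs of gene and library came up on both scales. KO male 3 stood above the other 5 KO libraries for Srebf1 (180.1 TPM against 64.2 to 96.8, and 134 after rescaling), Acaca (63.9 TPM against 28.7 to 34.9, and 47.6 after rescaling) and Gpam (123 TPM against 42.2 to 59.3, and 92.0 after rescaling). WT female 2 stood above the other 5 WT libraries for Acaca (34.8 TPM against 14.2 to 18.9, and 36.7 after rescaling), Acly (238 TPM against 96.7 to 136, and 251 after rescaling) and Elovl6 (90.4 TPM against 19.4 to 45.7, and 95.2 after rescaling). The labels put both animals in the later range of animal numbers.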

How the results depend on the processing

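The calls of Thrsp, Scd1 and Acaca by genotype held under each alternative run except median-of-ratios scaling, with or without KO male 3, where of these 3 Thrsp alone held. The members called by genotype were 3 as deposited, 5 after median-of-ratios scaling, 5 after that scaling without KO male 3 (chosen after seeing the data), and 3 to 5 when 1 library was left out. The genes called in males went from 5663 to 2959 after median-of-ratios scaling. Over all genotype calls that scaling took the higher and lower genes from 6153 and 592 to 2568 and 2293. For the sexes within WT, 705 genes were called, 409 with a covariate for early animal numbers, 465 in the later animals alone, and 291 to 1698 when 1 library was left out, the highest without WT male 3. Within KO, 10 genes were called and 6 to 10 with 1 library left out, the lowest without KO male 2. For the difference between the sexes, 112 genes were called and 75 to 176 with 1 library left out, the lowest without WT female 2 and the highest without WT male 3.

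Uncalled log2 differences changed sign as follows, and the cause was not tested. By genotype, after median-of-ratios scaling, Fasn was at -0.034 and Acly at -0.20, and without KO male 3 as well Fasn was at -0.19, Acly at -0.34 and Elovl6 at -0.14. Me1 was at 0.093 in the later animals and ran from -0.13 (without KO male 3) to 0.076 with 1 library left out. In males after that scaling Acacb was at -0.48, Acly at -0.013 and Me1 at -0.40, and Acacb was at -0.0098 after rescaling without the 20 most abundant genes. With 1 library left out in males, Srebf1 ran from -0.61 to 0.38, Acacb from -0.30 to 0.26, Me1 from -0.025 to 0.30 and Gpam from -0.49 to 0.18, each lowest without KO male 3. In females Fasn was at -0.18 after median-of-ratios scaling, and with 1 library left out Fasn ran from -0.076 to 0.55, Acly from -0.28 to 0.29 and Elovl6 from -0.61 to 0.32, each highest without WT female 2. For the difference between the sexes Gpam was at -0.028 after that scaling, and with 1 library left out Scd1 ran from -0.51 to 0.21 and Gpam from -0.24 to 0.43.

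No paired analysis was possible because the labels carry animal numbers and no replicate number shared between groups. A group left with 2 or fewer libraries is assumed to vary like the others. Read depth, and so the precision of low values, is unknown.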
